A study of Rattus norvegicus with 6 samples.

Results

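The array carried 1702 probes whose accession begins with XR_, the prefix that the RefSeq database gives to noncoding RNA models. They were taken from the scanner output as every non-control probe with such an accession, and they made up 6.90% of the 24684 non-control probes. Each of the 1702 probes has an accession of its own, 1698 were printed as 3 spots and 4 as 10 spots, and none of the accessions matched a gene in the current RefSeq table (assembly GRCr8). The probes are therefore named by accession, and genomic positions were not analysed here.

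An XR accession marks a transcript that an automated annotation pipeline predicted from genome sequence and transcript alignments and for which no protein-coding frame was accepted. NM accessions mark coding transcripts with RefSeq records of their own. XR models include long noncoding RNAs and transcribed pseudogenes, and they are revised or withdrawn as an annotation is renewed. Long noncoding RNAs are often transcribed at lower levels than messenger RNAs and more often in few cell types, and the best known of them act on chromatin, on splicing or as binding partners of other RNAs and proteins.

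The study profiled long noncoding and coding RNA in the pancreas of rats with experimental acute pancreatitis. The rats were male and 6 weeks old. In the acute pancreatitis group (AP), sodium taurocholate, a bile salt, was injected backwards into the pancreatic duct as a 4% solution at 1 mL/kg, and the pancreas was taken after 9 h. Bile salt in the duct injures acinar cells, the enzyme-secreting cells of the pancreas, and is a common way to induce severe pancreatitis in rodents. The labels name the other group control and do not say whether these rats had a sham operation or an injection of vehicle. RNA was depleted of ribosomal RNA, labelled with random primers and read in 1 colour (Cy3).

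The labels list 3 samples per group, but spot deviations showed that 1 array was scanned a second time in each group. Control 2 and control 3 were scans of 1 array, with a correlation of 0.980 between the deviations of 1578 bright spots from their probe means, and AP 2 and AP 3 were scans of another, with 0.948. The other 13 pairs of scans lay between 0.172 and 0.698. Each group thus held 2 arrays, and 2 against 2 was the number of replicates in every test. The 4 arrays lay on 1 slide, with the control arrays in slots 1 and 2 and the AP arrays in slots 3 and 4, so that slot and group cannot be told apart. Total RNA was extracted from each rat, but no label ties an array to an animal, and p-values measure only the spread between arrays.

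The labelled tissue was checked against marker genes on the same arrays, which were fitted with all other probes. The mean level of 9 acinar genes, in log2 units relative to the 75th percentile of a scan, was 1.30 to 1.38 on the control arrays and 2.10 to 2.18 on the AP arrays, and 7 of the 9 rose in AP. Genes of other cell types also moved with the group. The lymphocyte genes Cd3e, Cd3g, Lck, Cd79b and Cd2 rose (mean level of these 5 -2.89 to -2.37 in control and 1.80 to 1.88 in AP, with Cd79b at background in control). The adipocyte genes Adipoq, Fabp4 and Cfd fell (list mean 4.93 to 4.97 in control and 0.35 to 0.95 in AP). The erythroid genes Hbb, Alas2 and Slc4a1 also fell (3.53 to 3.69 and 0.57, with Slc4a1 at background in AP). So did the fibroblast genes Col1a2, Col3a1, Dcn and Pdgfra (3.93 to 3.94 and 1.70 to 1.87). Of 4 neutrophil genes, S100a8 and Csf3r fell and were at background in AP, and Mmp8 was at background in both groups. In the other lists, Krt19 and Krt8 of the 4 duct genes and Ins1 and Ins2 of the 5 islet genes fell, with Ins2 at background in AP. Csf1r of the 5 macrophage genes rose, while Cftr, Gcg and Cd163 were at background in both groups. The part of these differences in the results for XR probes was not tested. In whole tissue, fewer cells of a type and less RNA per cell cannot be told apart.

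Fewer XR probes were detected on the AP scans than on the control scans. A probe counts here as detected where more than 50% of its spots carry the scanner software's mark for a signal well above background. Of the 1702 XR probes, control 1 detected 993 (58.3%), control 2 detected 764 (44.9%) and control 3 detected 733 (43.1%). AP 1 to AP 3 detected 610 (35.8%), 636 (37.4%) and 604 (35.5%). The lowest control scan stood above the highest AP scan, and control 1 stood well above both scans of the other control array. Over all non-control probes the shares were 52.8 to 62.3% in control and 44.1 to 46.0% in AP, so the whole array showed the same order of groups. XR probes were detected less often than probes for coding transcripts (NM), at 61.6 to 70.1% in control and 52.0 to 53.9% in AP. They were detected more often than the probes named MRAK, another noncoding class of the array, at 36.0 to 45.3% and 27.6 to 30.0%.

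**Figure D1:**
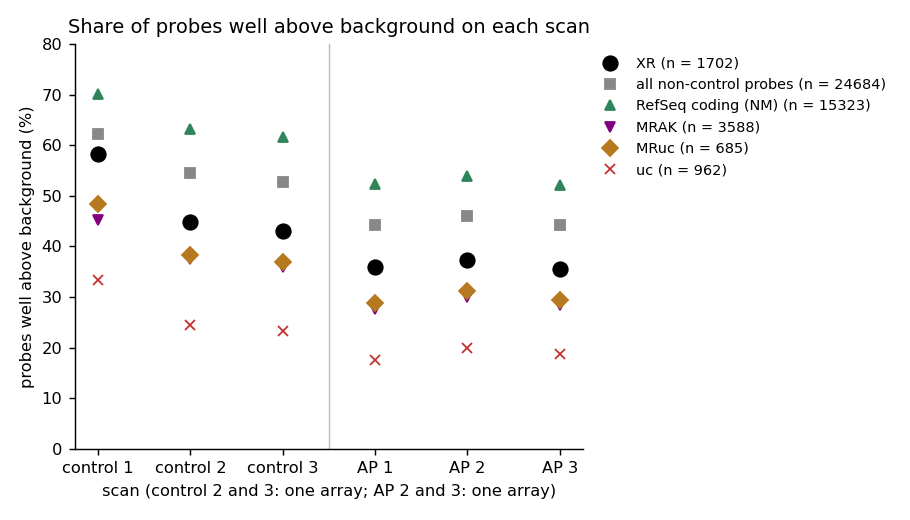
Percent of probes well above background on each of the 6 scans (x axis), for the XR probes (black circles), all non-control probes (grey squares), RefSeq coding probes and the MRAK, MRuc and uc noncoding probes. The XR shares lie between 43.1 and 58.3% on the control scans and between 35.5 and 37.4% on the AP scans, below the coding probes and above the other noncoding classes on every scan.

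Most XR probes were detected on every scan or on none. Of the 1702, 560 (32.9%) were above background on all 6 scans and 678 (39.8%) on none, against 40.5% and 35.0% of all probes. Another 238 were above background on 1 scan, and for 224 of these the scan was control 1. Between the control arrays, 717 XR probes were detected on both, 276 on the first array and not the second, and 10 on the second and not the first. The AP arrays were nearly even, with 582 detected on both, 28 on the first alone and 22 on the second alone. The excess of control 1 lay in dim probes, for the median signal of all XR probes was 25.0 on control 1 and 12.5 and 12.6 on control 2 and 3, while the 90th percentiles were close, at 595, 602 and 623.

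The arrays also differed in brightness, and the scaling that removes this moves small changes across 0. The 75th percentile of all signals was between 140 and 147 for the control group and between 70.1 and 77.7 for the AP group. Dividing each scan by its percentile raised AP values over control values by 0.96 on the log2 scale. When the same number of probes was taken on every scan, the brightest 10894, between 583 and 613 XR probes were among them on control scans and between 603 and 610 on AP scans. The ranges of the groups overlapped on this count, which an equal number of probes on every scan favours.

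The spread of XR probes between replicate arrays was near that of the whole array. For the 748 XR probes that were tested, the median standard deviation of the log2 signal was 0.134 between the control arrays and 0.0952 between the AP arrays. Over all tested probes it was 0.105 and 0.112. Scans of the same array differed far less, with a median of 0.0223 in control and 0.0333 in AP, so a second scan showed little of the spread between arrays. A standard deviation above 1 was seen between control arrays for 7 of 741 XR probes and between AP arrays for 4 of 742. Over all tested probes it was seen for 184 of 13181 and 293 of 13175.

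About as many XR probes changed as other probes, with the balance towards higher signal in AP after scaling. Of 748 XR probes tested, 390 differed between AP and control at an adjusted p below 0.05 (limma on array means, Benjamini-Hochberg over all 13210 tested probes), which is 52.1% of the XR probes against 55.1% of all probes. Of these, 231 rose in AP, 30.9% of those tested against 26.9% of all probes, and 159 fell, 21.3% against 28.2%. The other 358 did not pass the threshold. The median log2 fold change over the 748 was 0.24, against 0.08 for all probes, -0.03 for coding probes and 0.32 for MRAK probes. The middle 50% of XR probes lay between -0.40 and 0.70. Whether the XR probes differ from the other classes was not tested.

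The balance turned with the scaling, which moves all fold changes up alike by 0.96. With no scaling between arrays 23 XR probes rose and 418 fell, with a median of -0.72, against 768 higher and 7796 lower over all probes and a median of -0.88. Of the 231 XR probes that rose after scaling, 82 kept a positive sign without it and 23 passed the test. The 159 that fell had to keep their sign, and all of them passed. In the authors' deposited normalized values, 229 of the 231 and 158 of the 159 could be fitted, and all of these kept their sign, with 191 and 144 past the threshold. Under a background correction by the normexp model with the same percentile scaling, 29 XR probes rose and 54 fell, against 932 and 1720 over all probes.

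After scaling, the median fall was larger than the median rise. Among the 159 XR probes that fell, 98 did so by more than 1 on the log2 scale and 14 by more than 2, and the median was -1.14. Among the 231 that rose, 75 passed 1 and 16 passed 2, and the median was 0.84. In either direction 25.3% of the tested XR probes had a fold change beyond 1 on this scale, against 32.5% of all tested probes. Of those that fell, 105 were above background on all 6 scans and 46 were at background on every AP scan, where the fall has only a lower limit. These 46 entered the test through the control scans alone, and their measured falls are part of the median and counts above. Of those that rose, 208 were above background on all scans and 5 were at background in control. The sizes of falls and rises are therefore not a like comparison. XR_005778, which rose, and XR_006207, which fell, had a value on only 1 array of a group after outlier spots were left out; both were singled out after their values were seen.

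The direction changed with the level of the probe. Levels here are the mean of the group means, relative to the 75th percentile. Among the 90 XR probes above 4 on this scale, 43 rose (47.8%) and 7 fell (7.78%), against 55.9% and 17.2% of all probes of that level. Among the 92 between 2 and 4, 49 rose and 20 fell, whereas over all probes of that level 505 of 1568 rose and 647 fell. Among the 139 XR probes below -2, 18 rose (12.9%) and 37 fell (26.6%), close to the 13.98% and 27.1% of all probes of that level. The lowest level counted as detected was -3.78 to -3.67 on control scans and -2.52 to -2.47 on AP scans, so the dimmest of these probes lay at the edge of detection in AP. Probes below -2 could enter the test through control scans more easily than through AP scans, which favours a fall. The falls at this level therefore do not tell whether direction depends on level. At the threshold of the test itself, XR_006328 (log2 fold change 0.41, adjusted p = 0.0498 in limma) and XR_008748 (-0.33, 0.0489) lay just inside. XR_006434 (0.36, 0.05007) and XR_007329 (-0.62, 0.05001) lay just outside.

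**Figure D2:**
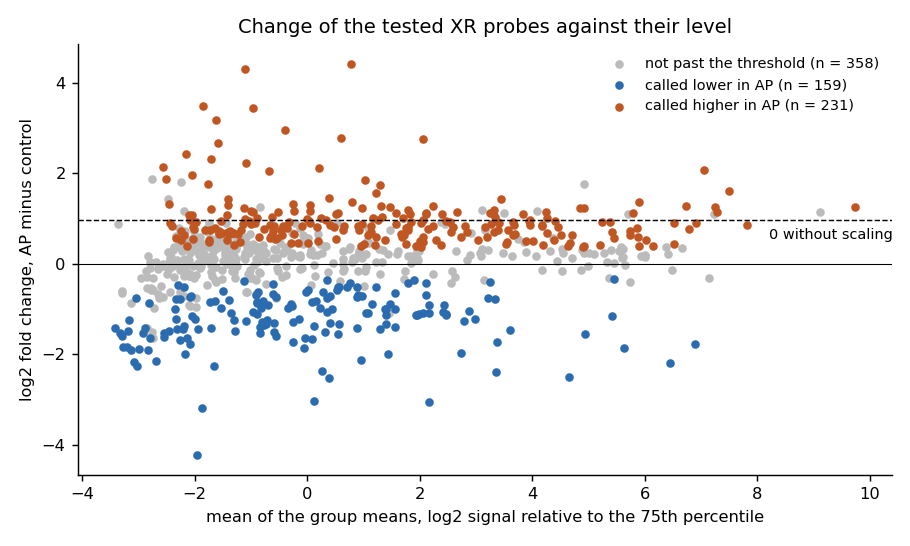
Log2 fold change of AP over control (y axis) against the mean log2 level relative to the 75th percentile (x axis) for the 748 tested XR probes, 1 point each. Orange points were called higher in AP (231), blue points lower (159) and grey points did not pass the threshold (358), and the dashed line marks where a fold change of 0 would lie without scaling. Among the brightest XR probes more were called higher than lower.

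The largest rise among XR probes seen on every scan was that of XR_008346. Its signal was 54.0, 52.9 and 55.8 on control 1 to 3 and 642, 541 and 573 on AP 1 to 3. Every AP scan lay about an order of magnitude above every control scan. Relative to the percentile, the group means were -1.42 ± 0.03 and 3.00 ± 0.07 (SD, n = 2 arrays each), a log2 fold change of 4.42 ± 0.10 (SE) or 21.4-fold (adjusted p = 0.000602, limma). This was the same size in the deposited values, at 4.46, and 3.46 with no scaling. XR_008346 and the rises and falls named next were chosen as the largest called changes in these data. That their groups lie apart is favoured by this choice, and their p-values are a description.

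XR_006750 and XR_006411 followed. XR_006750 had signals of 38.2, 43.2 and 38.8 in control and 166, 147 and 151 in AP, a log2 fold change of 2.95 ± 0.11 or 7.73-fold (adjusted p = 0.000747, limma). XR_006411 had 86.4, 78.3 and 85.7 in control and 309, 287 and 285 in AP, a change of 2.78 ± 0.09 or 6.86-fold (adjusted p = 0.000713, limma). In both, the groups were far apart and the replicate arrays close together. XR_008963 started from a higher signal, 237, 223 and 242 in control, and reached 799, 800 and 857 in AP. Its log2 fold change was 2.75 ± 0.11 (adjusted p = 0.000865, limma), and its scans, too, did not overlap between groups.

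The other 6 of the 10 largest rises were XR_008038 (log2 fold change 2.23), XR_007925 (2.12), XR_006964 (2.07), XR_006113 (2.05), XR_009613 (1.86) and XR_005972 (1.74). Together the 10 spanned 3.33-fold to 21.4-fold. With no scaling, 9 of the 10 still passed the test, and XR_006964 did not (1.12, adjusted p = 0.0951, limma). In the deposited values 9 of the 10 passed as well, again without XR_006964 (1.59, adjusted p = 0.0941, limma).

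XR_008598 fell the most among XR probes seen on every scan. Its signal was 1796, 1903 and 1986 in control and 125, 107 and 108 in AP. The relative level went from 3.69 ± 0.11 to 0.63 ± 0.08 (SD, n = 2 arrays each), a log2 fold change of -3.05 ± 0.11 (SE), 8.31-fold lower (adjusted p = 0.000787, limma). Arrays of 1 group differed by a small part of the distance between the groups.

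XR_005499 fell by nearly the same factor from a lower start. Its signal was 418, 491 and 494 in control and 27.4, 29.9 and 29.5 in AP, a log2 fold change of -3.03 ± 0.16 (adjusted p = 0.00128, limma). XR_009070 gave 469, 441 and 452 in control and 41.8, 39.6 and 41.2 in AP, a change of -2.52 ± 0.09 (adjusted p = 0.000777, limma). Neither probe overlapped between groups on any scan.

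Among the brighter probes, XR_006659 gave 8273, 8857 and 9318 in control and 852, 716 and 767 in AP, a log2 fold change of -2.49 ± 0.12 (adjusted p = 0.00106, limma). XR_006305 gave 13228, 13830 and 14739 in control and 2073, 1757 and 1886 in AP, a change of -1.87 ± 0.11 (adjusted p = 0.00156, limma). Falls of this kind were thus not limited to dim probes. The remaining 5 were XR_007499 (-2.39), XR_007003 (-2.36), XR_005948 (-2.13), XR_009563 (-1.99) and XR_006353 (-1.98). The 10 spanned 3.64-fold to 8.31-fold lower, and all 10 passed the test in the deposited values.

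**Figure D3:**
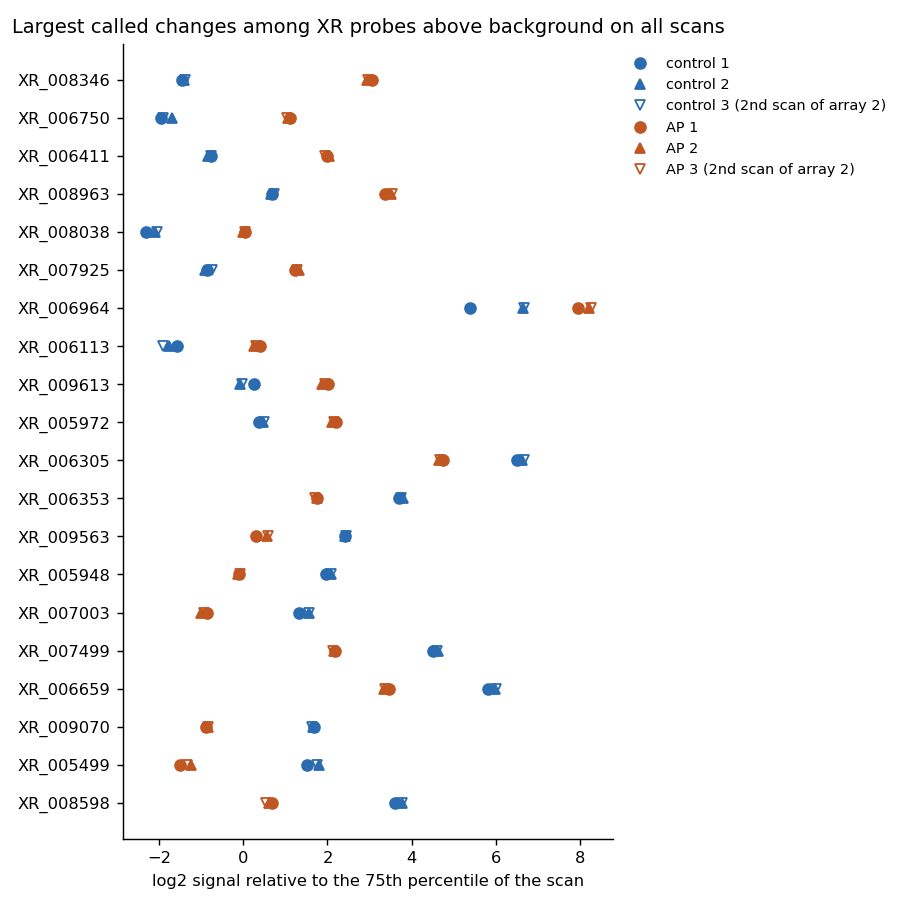
Log2 signal relative to the 75th percentile of the scan (x axis) for the 10 XR probes with the largest called rise and the 10 with the largest called fall among those above background on all 6 scans (y axis). Blue markers are control scans and orange markers AP scans, with open triangles for the repeated scan of an array. The groups do not overlap in any of the 20, which their choice as the largest called changes favours. XR_006964 shows 1 control scan (5.39) apart from the others (6.63 and 6.67).

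Detection in 1 group alone was mostly a feature of the control arrays. On all 3 control scans and no AP scan, 108 XR probes were well above background, 6.35% of the 1702 against 6.81% of all non-control probes. On all 3 AP scans and no control scan there were 5, 0.294% against 0.535%. The control-only share was near that of the whole array and the AP-only share was below it, and neither difference was tested. With an equal number of probes counted as detected on each scan, 30 XR probes were in the control group alone and 30 in the AP group alone, of which 27 and 4 were among the 108 and the 5. Over all non-control probes this count gave 631 in the control group alone and 548 in the AP group alone. The excess of control-only XR probes did not appear on this count. An equal number of probes on every scan favours even counts in the groups, so this was largely set by the method.

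In the 108 control-only probes the signal was low. Their median signal was 32.4 in control and 11.01 in AP, where the lowest signal counted as well above background was 10.6 to 11.5 on control scans and 12.3 to 13.5 on AP scans. The choice of these probes favours a fall, since they entered the test through the control scans alone. XR_005687 and XR_009314 passed as higher in AP (0.58 and 0.73) although undetected there; both were singled out after their values were seen. XR_009314 gave signals of 25.8, 21.3 and 22.4 in control and 18.9, 22.4 and 20.9 in AP, so its raw signals overlapped and the sign came with the scaling.

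For a probe at background in a group, only a limit of the fold can be given. It was computed from the mean of the detected group and, in the dim group, the mean over arrays of the probe's own value or the lowest detected value of the scan, whichever was higher. Where the probe's own values were the higher ones, as for XR_007820 and XR_008627, the limit is the measured fold. It is not a strict bound, since a probe can lie above that lowest value and stay unmarked. The limits are given after scaling, which makes a rise larger and a fall smaller. For 74 of the 108 this limit exceeded 1, and for 14 it reached 2-fold, against 1162 and 394 of the 1682 control-only probes of the whole array.

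XR_005457 had the largest limit of the control-only probes. Its signal was 158, 166 and 166 in control and 5.29, 3.45 and 4.07 in AP, at least 6.33-fold lower (adjusted p = 0.000912, limma). XR_008260 gave 117, 124 and 122 in control and 6.33, 8.21 and 6.46 in AP, at least 4.70-fold lower (adjusted p = 0.00108, limma). XR_006034 gave 106, 96.9 and 97.0 and then 14.3, 7.42 and 9.12, at least 3.86-fold lower (adjusted p = 0.00615, limma). In all 3 the control scans agreed closely and the AP scans scattered near background.

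The next 7 were XR_007820 (2.81-fold lower as measured), XR_008680 (at least 2.50-fold lower), XR_006779 (2.48), XR_005430 (2.46), XR_007169 (2.44), XR_005863 (2.19) and XR_006417 (2.17). That these 10 were lower in AP follows from their choice, and the p-values above are a description. For XR_007820 the AP signals of 18.3, 18.7 and 18.3 were steady and above the lowest detected signal, yet were not marked as well above background.

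The 5 AP-only probes follow with their values. Their choice fixes the direction, as all 132 AP-only probes of the whole array were called higher, so their rise and its p-values are a description. XR_008627 gave 15.1, 15.9 and 15.1 in control and 160, 143 and 154 in AP. It was 19.6-fold higher as measured, with a log2 fold change of 4.29 ± 0.10 (adjusted p = 0.000602, limma). It was the only one of the 5 with signals above 100 in AP. XR_006950 gave 13.9, 9.62 and 11.4 in control and 74.5, 63.9 and 65.1 in AP, at least 10.8-fold higher (adjusted p = 0.00110, limma). XR_009422 gave 18.0, 11.2 and 11.02 and then 39.3, 38.3 and 39.5, at least 5.31-fold higher (adjusted p = 0.00486, limma).

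The remaining pair were dimmer. XR_008375 gave 15.7, 9.00 and 8.62 in control and 29.6, 23.5 and 24.1 in AP, at least 3.91-fold higher (adjusted p = 0.00986, limma). XR_006426 gave 15.2, 10.6 and 13.1 and then 27.8, 20.4 and 25.2, 3.64-fold higher as measured (adjusted p = 0.00327, limma). In 4 of the 5, control 1 was the brightest control scan. With no scaling their log2 fold changes were 3.34 (XR_008627), 2.52 (XR_006950), 1.47 (XR_009422), 1.17 (XR_008375) and 0.91 (XR_006426).

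Leaving out a scan can only keep or raise the number of AP-only probes. Without AP 1 there were 6 AP-only XR probes and 185 over the whole array. The count rose most when control 1 was left out, over the whole array from 132 to 212. Without that scan 11 XR probes were AP-only, and the 6 added were XR_006486, XR_008107, XR_008400, XR_008875, XR_009032 and XR_009080, named once their values were known. The largest change among them was that of XR_009032, with signals of 20.1, 13.8 and 10.96 in control and 81.7, 63.9 and 66.0 in AP and a log2 fold change of 3.17 ± 0.27 (adjusted p = 0.00320, limma). XR_006486 (27.2, 9.72 and 10.5 against 29.0, 29.1 and 31.3) and XR_008107 did not pass the test (adjusted p = 0.0529 and 0.0982, limma), and the other 4 did.

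**Figure D4:**
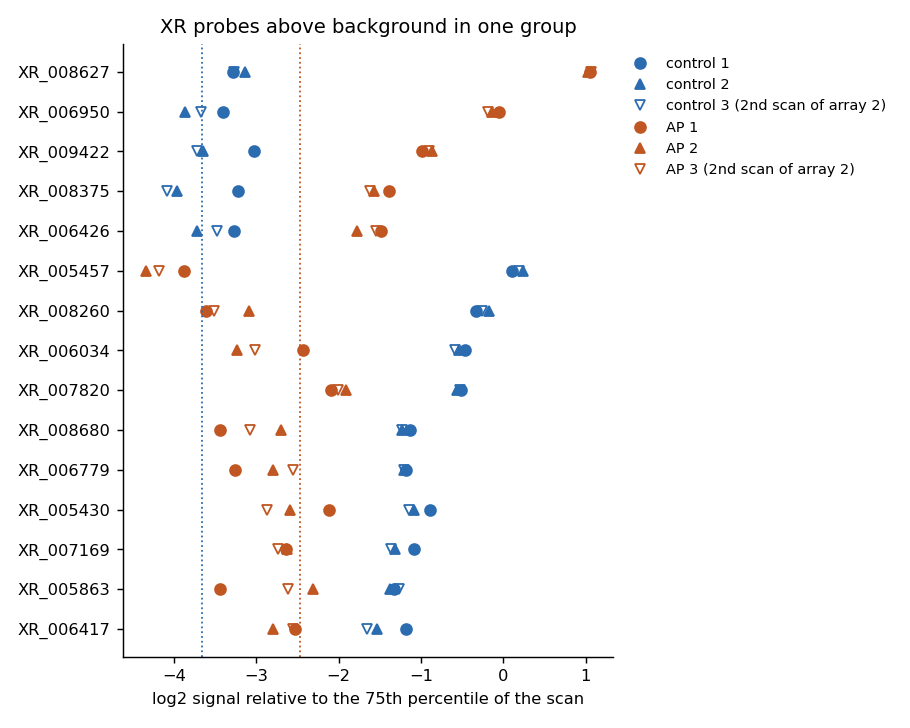
Log2 signal relative to the 75th percentile of the scan (x axis) for the 5 XR probes well above background on AP scans alone (top) and the 10 with the largest limit among the 108 on control scans alone. Blue markers are control scans, orange markers AP scans, and the dotted lines mark the highest value, over the scans of a group, of the lowest level counted as above background (-3.67 in control, -2.47 in AP). The groups are apart in all 15, which their choice favours. Probes such as XR_007820 lie right of the AP line without being counted as detected there.

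The repeated spots of an XR probe usually read alike, with exceptions that moved the test. Where all spots of a probe were detected, their range was above 2 on the log2 scale on at least 1 scan for 16 of 924 XR probes (1.73%), against 126 of 4120 probes with several spots (3.06%). This count leaves out, on each scan, the XR probes with some spots detected and others not. They numbered 122 (7.17%) on AP 3, the fewest, to 215 (12.6%) on control 1, the most. All 16 were tested. With the mean of the spots 5 passed, all higher in AP: XR_005555, XR_006176, XR_006416, XR_006911 and XR_006964, named after their values were seen. With the median of the spots 13 passed, including these 5. Over all XR probes 376 passed with both the mean and the median, 14 with the mean alone and 37 with the median alone.

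XR_006964, among the 10 largest rises, shows how a single spot entered. On control 1 its spot 1 read 1087 and the other spots 15159 and 14182, and all 3 were kept. The same spot read 796 on control 2, 865 on control 3 and 786 on AP 1 and was left out there as an outlier by the scanner software, but it read 22380 and 24607 on AP 2 and AP 3, close to its neighbours. Averaged, the log2 fold change was 2.07 ± 0.48 (adjusted p = 0.0306, limma), and with the median of the spots it was 1.46 ± 0.13 (adjusted p = 0.00342, limma). The rise passed in both, at a smaller size and with less error in the latter.

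Spots that disagreed were also found in probes whose arrays were far apart. Over all tested XR probes the widest spread between control arrays was that of XR_005942, detected on 3 scans, at 1.83. Among XR probes above background on all 6 scans it was that of XR_009193. XR_009193 had a standard deviation of 1.29 between control arrays and 1.38 between AP arrays, and its log2 fold change of 1.09 ± 0.98 did not pass (adjusted p = 0.402, limma). XR_006319 had 0.48 and 1.87, with spots between 531 and 8554 on AP 1 and between 9136 and 10660 on AP 2, and did not pass either (1.75 ± 1.01, adjusted p = 0.218, limma). XR_006025 had 1.11 and 0.11, with 1 spot at 3.16 on control 2 beside 79.6 and 94.6 (1.26 ± 0.58, adjusted p = 0.149, limma). These 4 probes were named after their values were seen, and for the latter 3 the arrays did not settle a direction.

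**Figure D5:**
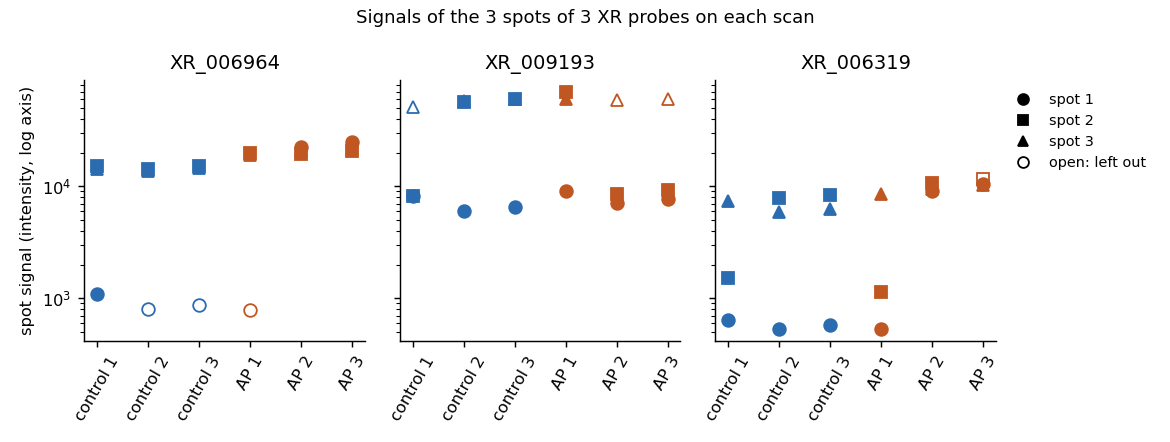
Signal of each of the 3 spots (y axis, log scale) on each scan (x axis) for XR_006964, XR_009193 and XR_006319, with open markers for spots left out as outliers. In XR_006964 a single spot lies more than 10-fold below the others on all control scans and AP 1, and of these 4 scans it is kept on control 1 alone.

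The brightest XR probe, XR_008147, singled out for its level, was called in a way that changed with the normalization. Its signal was 68281, 94040 and 96711 in control and 97782, 98338 and 102920 in AP, with no spot saturated on any scan. The groups did not overlap, but in raw signal control 2 and 3 lay closer to the AP scans than to control 1. After scaling its log2 fold change was 1.25 ± 0.22 (adjusted p = 0.0150, limma), with no scaling 0.30 (0.258) and in the deposited values 0.23 (0.300).

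Calls that did not hinge on a single array or scan were a smaller set. Leaving out each scan and each second array in turn, 100 of the 231 rises and 106 of the 159 falls passed the test in all 8 fits. There were 25 fits in all, among them the normexp correction, no scaling and a replicate block, and 1 of them was limited to probes above background on all 6 scans. Without scaling, only 23 of the 231 rises passed, against all 159 falls, so that fit alone left few rises to count. Counts of this kind over all probes are not given here. Counting for each probe the fits that tested it, 19 rises and 47 falls passed every time. The 47 included XR_006207, which had a value on only 1 array of a group. At least 1 of the 8 leave-out fits did not test it, so its call can still hinge on that array.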

How the data were processed

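Signals were read from the scanner output of 6 scans, whose processed intensity (gProcessedSignal, per the file headers) is background-subtracted by Agilent Feature Extraction 11.0.1.1, per the submitters' processing notes. The probe sequences and gene names of the XR probes were not used here. Outlier spots were dropped, log2 signals were averaged over the spots of each probe, the scan's 75th percentile over 24684 non-control probes was subtracted, and scans of 1 array were averaged. A probe was tested where 3 or more of the 6 scans detected it, with limma 3.58.1 (R 4.3.3; lmFit and eBayes, 2 residual degrees of freedom), two-sided, with Benjamini-Hochberg adjustment over 13210 probes. An exact permutation test of 2 arrays against 2 cannot go below 0.333, so no such test was used. The number of arrays limits the precision. Tables and plots were made with Python 3.11.15 (numpy 2.4.6, pandas 2.3.3, matplotlib 3.10.9). The test was tried on simulated data. An alternative used the authors' deposited table of log2 normalized values, which holds 1698 of the XR probes; the sources used here do not give its method. The normexp alternative (offset 50) was run on median spot and background intensities, also deposited per the file headers. The deposited marks for outliers and for signals well above background were used as given.

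Named are, by rule, the 10 XR probes with the largest limit of the fold among those detected in control alone, all 5 detected in AP alone, the 10 largest called rises and falls among probes detected on all 6 scans, and those next to the threshold. A rule for accessions matched to gene symbols named none, and no accession had a second probe. Members, lists and rules were chosen with earlier results of these data known. One marker gene of the lymphocyte list is not reported here.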

Additional observations from a re-analysis of the deposited data

How the results depend on the processing

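The tests rest on 2 arrays per group on 1 slide, and leaving out 1 array leaves a lone array that is assumed to vary like the other group. Against 390 of 748 XR probes called, 83 of 748 were called with normexp and percentile scaling (29 higher, 54 lower) and 586 of 1697 with no filter on dim probes (434 higher). Over all probes, normexp with percentile scaling gave 932 higher and 1720 lower of 13210. With no filter, 6800 were higher and 3363 lower of 24636. In these settings the median log2 fold change of XR probes was near that of all probes. It was 0.226 against 0.190 with normexp and percentile scaling, and 0.385 against 0.381 with no filter. With no scaling 23 were higher and 418 lower and the median log2 fold change turned to -0.72. The labels do not say whether the replicate numbers pair the arrays. The differences between array 1 and array 2 correlated at -0.21 between the groups over 13146 probes. With 1 such difference per group, this cannot settle whether the arrays are paired. With the replicate block 146 were higher and 136 lower, and with the crossed pairing 224 and 154. Leaving out scans or arrays gave 249 to 392 called, 128 to 231 higher and 121 to 162 lower, with the fewest without the second control array. The median of 0.24 became 0.28 with 6 scans as replicates, with or without the scan session as a block, 0.19 with quantile normalization, 0.057 with normexp and quantile normalization, 0.18 in the deposited values, 0.39 with the percentile over detected probes or with no filter, and 0.36 for probes detected on all 6 scans. It was 0.15 to 0.32 in the leave-out fits, and 0.23 with dim probes at the limit of their fold. The crossed pairing, that limit and the median of spots were chosen after seeing the data. The cause of these shifts was not tested.

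AP-only XR probes numbered 2 with the scanner's mark for positive and significant signal, 2 with at least 1 spot detected, 30 with an equal number of probes per scan and 5 to 11 in the leave-out sets. Over all non-control probes there were, in the same order, 50, 121, 548 and 132 to 212. Control-only XR probes numbered 30 with an equal number of probes, and 88 with the positive and significant mark, of which 10 were among the 108. Over all non-control probes these settings gave 631 and 950. The median detected share was 68.7% on control scans and 58.2% on AP scans with that mark, and on AP scans 40.6% with at least 1 spot and 33.0% with every spot. The fold change changed sign with normexp and percentile scaling for XR_005863 (0.031), XR_006417 (0.017), XR_006434 (-0.12) and XR_007329 (0.018), and with no scaling for XR_006328 (-0.55) and XR_006434 (-0.60). Over all named probes and settings, 813 values kept their direction and side of the threshold, 44 lost the call, 18 gained one and 6 changed sign.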
